A study of Saccharomyces cerevisiae and Schizosaccharomyces pombe with 8 samples.

Results

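The ribosomal protein genes of the budding yeast Saccharomyces cerevisiae were examined as a family of gene copies. Members were all nuclear genes whose symbol is RPL or RPS followed by digits, with or without a final A or B. The rule found 132 genes among 6431 annotated nuclear genes of assembly R64. They form 57 pairs of an A and a B copy and 18 genes without a second copy, and 88 of the 132 have an intron in the coding region. Of the members, 76 encode proteins of the large (60S) ribosomal subunit and 56 encode proteins of the small (40S) subunit. The stalk genes, whose symbols start with RPP, are outside the rule.

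The data are 4 libraries of wild type S. cerevisiae, 2 from cultures in minimal medium and 2 from cultures in rich medium. The library method copies the 3′ end of polyadenylated RNA, so that 1 read marks 1 transcript end and levels need no scaling by gene length. The labels name no strain and give no recipe for either medium. They also do not say whether libraries of a medium came from separate cultures. The p-values below therefore measure only spread between these libraries, which may be technical. The tests pool that spread in part over all genes or pairs, so a p-value or SE does not reflect a gene's own libraries alone. Libraries of the fission yeast S. pombe were not used here.

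Ribosomal proteins assemble with ribosomal RNA into the 40S subunit, which decodes mRNA, and the 60S subunit, which forms peptide bonds. Most budding yeast ribosomal protein genes survive as pairs from an ancient whole-genome duplication, and the copies encode identical or nearly identical proteins. The copies differ more in their introns and untranslated regions, and for several pairs the protein is known to act back on the RNA of 1 of its own copies. Transcription of the whole family is known to follow nutrient supply through the TOR and protein kinase A pathways.

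Read totals were 1174191 and 1253021 for the minimal libraries, 2057269 and 1558011 for the rich ones. Members took 28.7% to 31.3% of the nuclear reads in each library. Levels are given as CPM, counts per 1000000 assigned reads, after the trimmed-mean scaling of edgeR. The 2 rich libraries differed more from each other over the members than the 2 minimal libraries did, with a median absolute log2 ratio of 0.25 against 0.10. The deposited reads of near-identical copies could be told apart. In 124 members every read lay where the 25 nt upstream of the cleavage position occur once in the genome. The lowest share was 99.8%, in RPL4B. Counted over all positions 40 to 300 nt past the stop codon, with or without reads, every such 25 nt was unique in 125 members. The lowest share was 93.1%, in RPS4A. How the aligner placed ambiguous reads is not given in the sources used here, and reads dropped as ambiguous would not show in the share of reads.

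The copies of most pairs were used unevenly. Over the mean of the 4 libraries the A copy held more reads in 27 pairs and the B copy in 30 pairs. The higher copy exceeded the lower by at least 2-fold in 38 pairs, by at least 5-fold in 20 and by at least 10-fold in 10, and the median over the 57 pairs was 3.14-fold. These counts use reads up to 500 nt past the stop codon. With reads up to 1000 nt, which matter for RPS28 (described later), they were 38, 19 and 9, and the median was 2.97-fold. In 17 pairs the ratio was under 1.5-fold. The same copy was the higher one in all 4 libraries in 45 pairs. The proteins of the pairs are 84.4% (RPL22) to 100% identical, 21 pairs have the same protein, and the coding sequences are 78.9% to 99.4% identical.

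**Figure D1:**
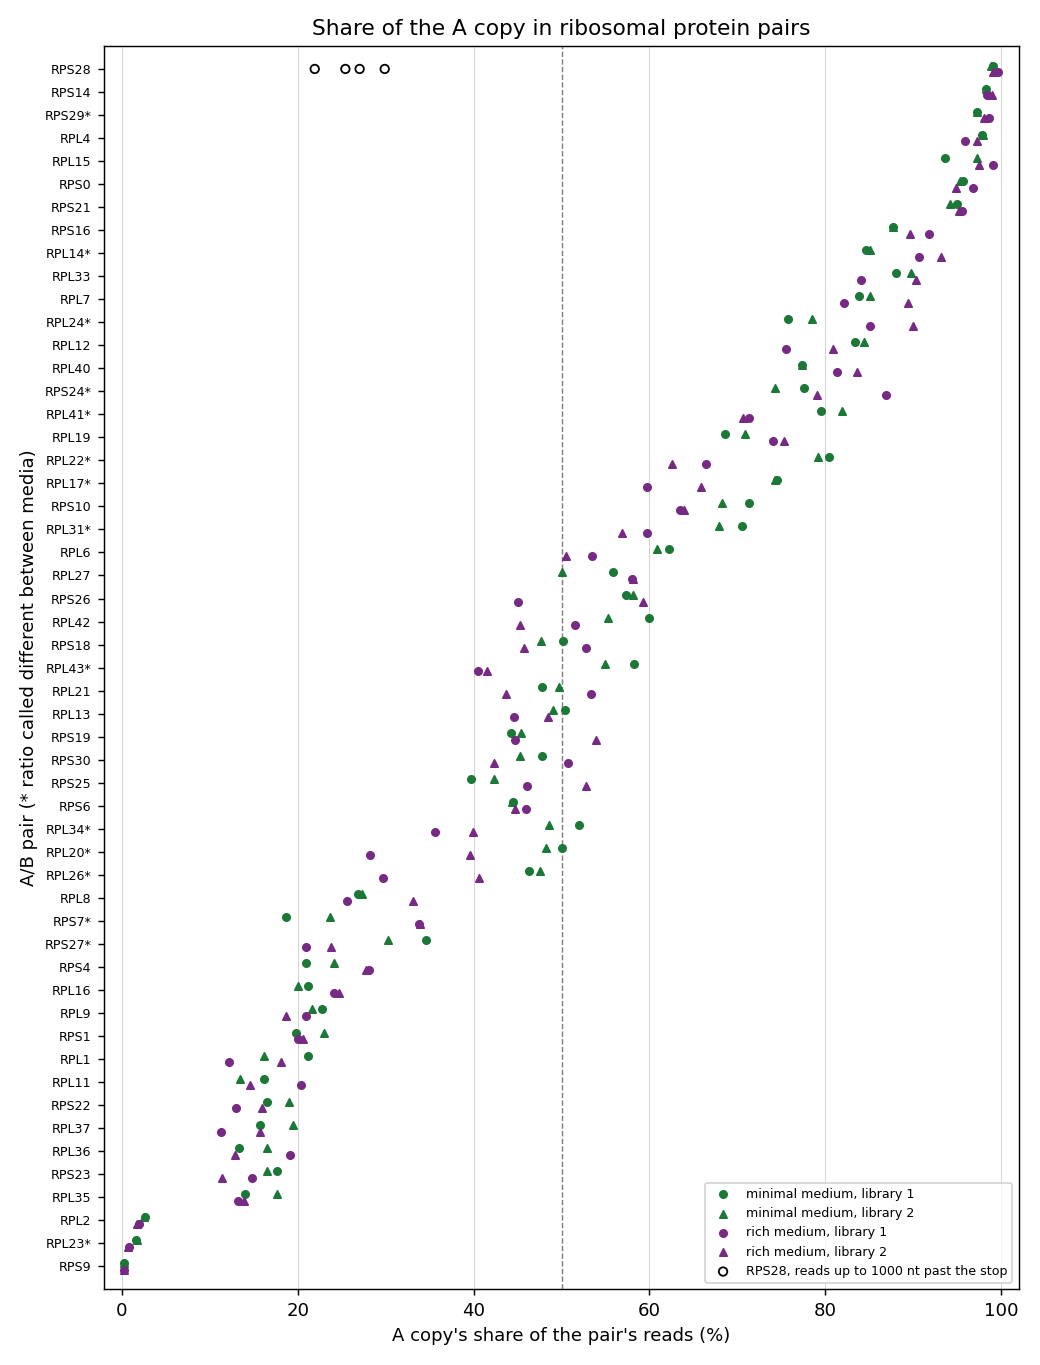
Share of the A copy in the reads of each pair (horizontal axis, percent) for 53 pairs (vertical axis, ordered by the mean of 4 libraries). Circles and triangles are the 2 libraries of each medium, green for minimal and purple for rich. Asterisks mark the 15 plotted pairs whose ratio was called different between media, and open circles show RPS28 with reads up to 1000 nt past the stop codon, at 21.9% to 29.9%.

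Among the most uneven pairs, RPS9 stood first. RPS9 encodes a 40S protein that binds early in small subunit assembly, and Rps9 is known to act on the splicing of its A copy. RPS9A (chrXVI:404950-406044) held 26.1 and 28.1 CPM in minimal medium, against 20.4 and 25.5 CPM in rich medium. RPS9B (chrII:604508-605508) held 13721 and 12831 CPM in minimal and 10128 and 10558 CPM in rich medium. The A copy thus made up 0.190% to 0.241% of the pair's reads in every library, and 14.0% of its own few reads lay between start and stop codon rather than past it. The share with reads past the stop codon only was 0.185%.

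RPL23, RPL2, RPL35 and RPS23 were the other pairs with the lowest A shares. RPL23B held 8620 to 15048 CPM against 86.1 to 148 CPM for RPL23A, an A share of 0.697% to 1.68%. For RPL2, a protein of the peptidyl transferase centre, the A share was 1.67% to 2.58%. RPL35 and RPS23 lay well above these, at 13.2% to 17.7% and 11.4% to 17.7%.

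The opposite order held in RPS14, RPS29, RPL4 and RPL15. Rps14 is known to repress the splicing of its B copy. RPS14A held 14722 and 13208 CPM in minimal and 10930 and 11343 CPM in rich medium, against 259, 239, 179 and 122 CPM for RPS14B, an A share of 98.2% to 98.9%. The A share was 97.2% to 98.6% for RPS29, 95.9% to 97.9% for RPL4 and 93.6% to 99.1% for RPL15. RPL15B was hardly detected, with 25 reads over the 4 libraries. RPS18 was among the most even pairs, with a mean A share of 49.1%.

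RPS28 needs the position of its 3′ ends to be read correctly. Up to 500 nt past the stop codon RPS28B (chrXII:673131-673334, plus strand) held 27 reads over the 4 libraries, and the pair would be listed as 98.9% to 99.7% A copy. Further out, to 1000 nt past its stop codon, lay another 10880 reads, 99.8% of all its reads up to that point, and the next gene on the same strand starts 4878 nt downstream. The most used position was 648 nt past the stop codon. RPS28B is known for an unusually long 3′ untranslated region, through which Rps28 and the decapping factor Edc3 promote decay of its own mRNA. The sequences around the most used ends of both copies are shown because they carry this difference. The capital is the deposited cleavage position, and the line gives 24 bases before it and 5 after it, from RefSeq R64. Hardly any such position is followed by A. Where the capital is an A, it may therefore belong to the genome or to the tail, and the cleaved base may lie further upstream. The lines lie at chrXV:648666-648695 (minus strand, 133 nt past the stop codon) and chrXII:673958-673987 (plus strand, 648 nt past the stop codon).
RPS28A: aataatactaataactctattgtaActcgt
RPS28B: ataataatctgattacttcatacaAtagaa

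With reads up to 1000 nt counted, RPS28B held 1490 and 1425 CPM in minimal medium, against 1974 and 2226 CPM in rich medium. RPS28A held 508 and 528 CPM in minimal and 842 and 625 CPM in rich medium. The A share was then 25.4% and 27.0% in minimal and 29.9% and 21.9% in rich medium, so that the B copy, listed last by the shorter window, was the higher one in every library. Both copies were lower in minimal medium, RPS28B by a log2 change of -0.53 (edgeR quasi-likelihood test, Benjamini-Hochberg adjusted p = 0.0172) and RPS28A by -0.50 (adjusted p = 0.028). The ratio of the copies was not called between media, with a log2 change of 0.04 ± 0.25 (SE). With this window 26 pairs had the higher A copy and 31 the higher B copy. The longer window was chosen after these reads had been seen. With the shorter window RPS28A was not called without minimal replicate 1 (adjusted p = 0.316), minimal replicate 2 (0.261) or rich replicate 1 (0.0767), nor by DESeq2. RPL8A had 20.1% of its reads between 500 and 1000 nt, RPL12B 5.97%, and 124 members under 1%.

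The question of whether copies respond to the medium differently was addressed by testing the ratio of A to B reads within each library. The ratio was called in 16 of the 57 pairs (28.1%). Over all duplicate gene pairs of the genome that were tested, 711 in number, 21.4% were called. Over the 654 of them that are not ribosomal protein pairs, 20.8% were called. These other pairs were not matched to the ribosomal protein pairs in read depth or in likeness of the copies. Of the 16 pairs, the A share was higher in minimal medium in 11 (against 11.0% of all pairs and 10.2% of the other pairs). It was lower in 5 (against 10.4% and 10.6%). In the other pairs the copy that sorts first by systematic name was taken as A. Their split by direction is therefore arbitrary and gives no background for the direction of the 16. At an unadjusted p under 0.05 there were 23 pairs (40.4%), against 31.2% of all pairs and 30.4% of the other pairs. The A shares of the media did not overlap in 40 of the 57 pairs (70.2%), the 16 called ones included, against 56.4% of all pairs and 55.2% of the other pairs. In 11 of the 16 the copy with more reads had the smaller share in minimal medium, and in 5 the larger. Pairs with the same protein made up 6 of the 16 (of 21 such pairs), and pairs whose proteins differ made up 10 (of 36).

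RPL22 and RPL23 gained A share in minimal medium. RPL22 is a 60S protein that is dispensable for growth, and it is known to inhibit the splicing of RPL22B. Its copies have the lowest protein identity of all pairs, 84.4%, with 19 residue differences. RPL22A (chrXII:263194-263948) held 1055 and 974 CPM in minimal and 822 and 617 CPM in rich medium, whereas RPL22B (chrVI:64243-64932) held 257 and 256 CPM in minimal and 415 and 369 CPM in rich medium. The A share was therefore 80.4% and 79.2% in minimal medium, against 66.4% and 62.6% in rich medium. The media did not overlap in either copy, and the ratio differed by 1.12 ± 0.24 (log2, SE; edgeR adjusted p = 7.5e-05). RPL22A rose by 0.49 (adjusted p = 0.0281) and RPL22B fell by 0.61 (adjusted p = 0.00676), while the sum of both was not called, with a log2 change of 0.20. DESeq2 did not call RPL22A (adjusted p = 0.061). Without minimal replicate 1 neither the ratio (edgeR adjusted p = 0.077) nor either copy was called, and without minimal replicate 2 the ratio was called and the copies were not (adjusted p = 0.202 and 0.194).

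RPL23, a 60S protein on the face toward the 40S subunit, showed the largest change of ratio, 1.19 ± 0.29 (log2, SE; edgeR adjusted p = 0.00039). RPL23A was at 148 and 147 CPM in the minimal libraries and at 116 and 86.1 CPM in the rich ones. RPL23B was at 8932 and 8620 CPM in minimal and 15048 and 12256 CPM in rich medium. The A share was 1.63% and 1.68% in minimal medium against 0.768% and 0.697% in rich medium, so the ratio moved while the B copy kept nearly all reads. RPL23A rose by 0.54 (adjusted p = 0.0335) and RPL23B fell by 0.64 (adjusted p = 0.0106).

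RPL14, RPL24 and RPS7 lost A share in minimal medium. The A share of RPL14 was 84.7% and 85.1% in minimal and 90.7% and 93.1% in rich medium. That of RPL24, whose protein joins the 60S subunit late in its assembly, was 75.8% and 78.4% in minimal and 85.1% and 90.0% in rich medium. That of RPS7, a 40S protein whose copies differ at 23 residues, was 18.6% and 23.6% in minimal and 33.8% and 34.0% in rich medium. No library of a medium crossed into the other in these 3 pairs. The log2 changes of the ratio were -1.03, -1.08 and -0.93 (edgeR adjusted p = 0.00047, 0.000501 and 0.0148). The ratio of RPS7 was not called by DESeq2 or with reads up to 200 nt past the stop codon. RPS7A had 311 reads over the 4 libraries. RPL14 was the third pair whose copies were called in opposite directions, with RPL14A lower by 0.57 and RPL14B higher by 0.46 in minimal medium on the log2 scale.

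RPL20, RPL43 and RPL17 gained A share in minimal medium. RPL20 had an A share of 50.1% and 48.2% in minimal and 28.3% and 39.6% in rich medium. RPL43 had 58.2% and 54.9% in minimal and 40.6% and 41.5% in rich medium. RPL17, which lines the exit tunnel for the growing peptide, had 74.6% and 74.2% in minimal and 59.7% and 65.9% in rich medium. The log2 changes of the ratio were 0.93, 0.90 and 0.78 (edgeR adjusted p = 0.00162, 0.00162 and 0.00873). They arose in different copies: RPL20B and RPL43B fell by 1.08 and 0.62 with no call for the A copy, and RPL17A rose by 1.06 with no call for the B copy.

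In RPL43 the order of the copies itself differed between media, with more A reads in both minimal libraries and more B reads in both rich libraries. Further called pairs with a higher A share in minimal medium were RPL26, RPL31, RPL34, RPL41 and RPS27, with log2 changes of the ratio of 0.68 to 0.77. RPS24 and RPS29 had a lower one, with changes of -0.66 and -0.74.

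The pair calls needed both minimal libraries. In the 16 called pairs the A shares of the media did not overlap, so leaving out 1 library could not change a direction. Without minimal replicate 1 no pair was called, and without minimal replicate 2 RPL22 alone was, although all 16 kept their direction in both cases. Without rich replicate 1 the test called 14 pairs with a higher and 9 with a lower A share, and without rich replicate 2 it called 21 and 11. DESeq2 called 9 and 3, 11 of them among the 16. With reads up to 200 nt past the stop codon 5 and 2 pairs were called, RPL22, RPL23, RPL24, RPL14, RPL20, RPL43 and RPL17. RPL41 could not be tested in that window, and the other 15 of the 16 pairs kept their direction.

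**Figure D2:**
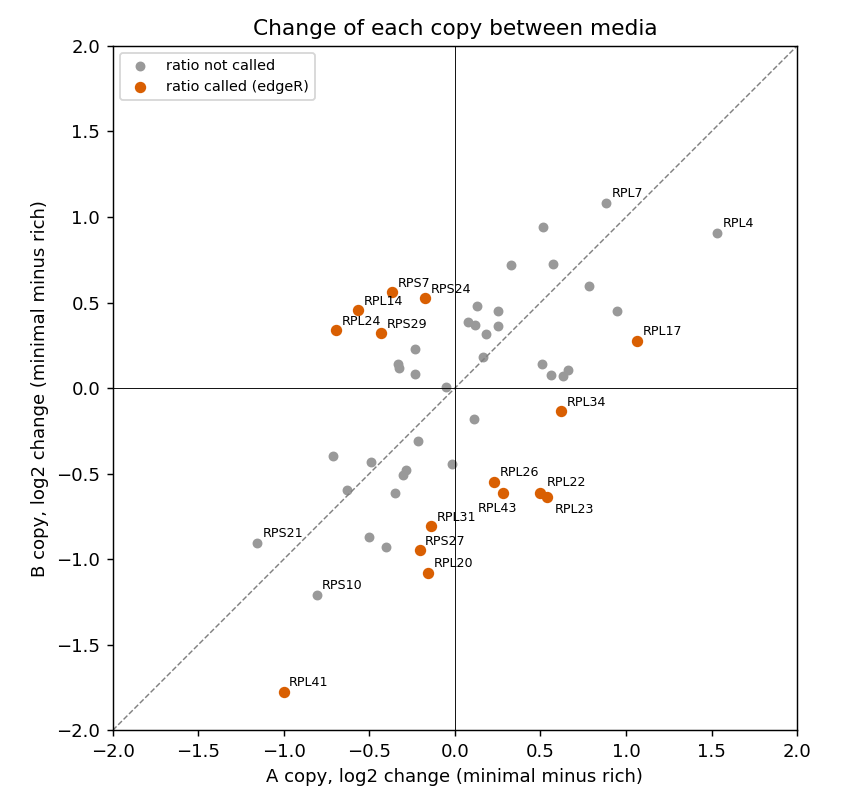
Log2 change between media (minimal minus rich) of the A copy (horizontal axis) and the B copy (vertical axis), 1 point per pair, for 51 pairs with both copies tested. Orange points are the 15 plotted pairs whose ratio was called, and the dashed line marks equal change of both copies. RPL41, RPS10 and RPS21 lie at the lower left and RPL4 and RPL7 at the upper right, whereas RPL14, RPL22 and RPL23 lie in the quadrants where the copies changed in opposite directions.

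Of the 130 members tested for a change of level, 31 rose and 34 fell in minimal medium and 65 were not called (edgeR, adjusted p under 0.05). The family was thus called in 65 of its 130 tested members, against 33.4% of all 4650 genes tested, of which 17.7% rose and 15.7% fell. Members hold more reads than the average gene, and this comparison was not matched for read depth. Over the members the median of the log2 changes was -0.01, and over all genes it was -0.01. Members took about the same share of reads in each library and weigh on the scaling, so these medians do not show whether the family as a whole moved. Such levels are shares of the polyadenylated RNA, and fewer cells expressing a gene and less RNA per cell cannot be told apart in these bulk cultures. The 2 members not tested were RPS28B, with the window of 500 nt, and RPL15B. Leaving out 1 library cannot change the direction of a member whose media do not overlap. Without minimal replicate 1 the counts were 13 up and 9 down, without minimal replicate 2 they were 11 and 12, without rich replicate 1 they were 49 and 34, and without rich replicate 2 they were 35 and 54. All 65 called members kept their direction when any 1 library was left out, and 22, 23, 62 and 63 of them kept their call in these 4 settings.

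Both subunits held rises and falls. Among 60S members 20 of 75 rose and 19 fell, and among 40S members 11 of 55 rose and 15 fell. Of the 57 A copies 16 rose and 10 fell, and of the 55 B copies tested 12 rose and 18 fell. Of 88 members with an intron 21 rose and 23 fell, and of 42 without one 10 rose and 11 fell. None of these differences between classes was tested. Among the 18 genes without a second copy 3 rose, RPS2, RPS15 and RPL5, and 6 fell, RPL29, RPS20, RPL39, RPL10, RPS31 and RPL38.

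The largest rise was that of RPL4A (chrII:300166-301254), which encodes a protein that reaches into the exit tunnel. RPL4A was at 21514 and 21437 CPM in minimal medium, against 6022 and 8833 CPM in rich medium. The fold was 2.89, a log2 change of 1.53 ± 0.21 (SE; edgeR adjusted p = 2.5e-06), and both minimal libraries lay far above both rich ones.

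RPS15, whose protein takes part in export of the pre-40S particle, was at 1399 and 1337 CPM in minimal and at 499.9 and 723 CPM in rich medium (log2 change 1.16, edgeR adjusted p = 1.8e-05). RPL5, which enters the 60S subunit together with the 5S RNA, was at 3671 and 3804 CPM in minimal and at 1729 and 1762 CPM in rich medium (log2 change 1.10, edgeR adjusted p = 1.9e-05). The rises of RPL7B and RPL17A were of a similar size, 1.08 and 1.06. The groups overlapped in none of these 5 genes.

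The largest fall was that of RPL41B (chrIV:221724-221801), which with RPL41A encodes a very short basic peptide of the 60S subunit. RPL41B was at 319.96 and 317.98 CPM in minimal medium, against 1104 and 1080 CPM in rich medium, 3.42-fold more in rich (log2 change -1.78 ± 0.17, SE; edgeR adjusted p = 1.2e-08). RPL41A fell less, from 2745 and 2602 CPM in rich to 1238 and 1436 CPM in minimal medium (edgeR adjusted p = 5.9e-05). RPL41 was the only pair of the 16 in which both copies were called in the same direction.

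RPS10B was at 539 and 553 CPM in minimal and at 1377 and 1145 CPM in rich medium (log2 change -1.21, edgeR adjusted p = 5.1e-06). RPS21A, which encodes a small 40S protein, was at 2297 and 2104 CPM in minimal and at 5167 and 4641 CPM in rich medium (log2 change -1.16, edgeR adjusted p = 1.4e-05). RPL20B fell by 1.08 on the log2 scale. The 10 genes named here for the largest rises and falls kept their direction and their call in each alternative run for them, leaving out each library included, except that RPL41A could not be tested with reads up to 200 nt past the stop codon.

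**Figure D3:**
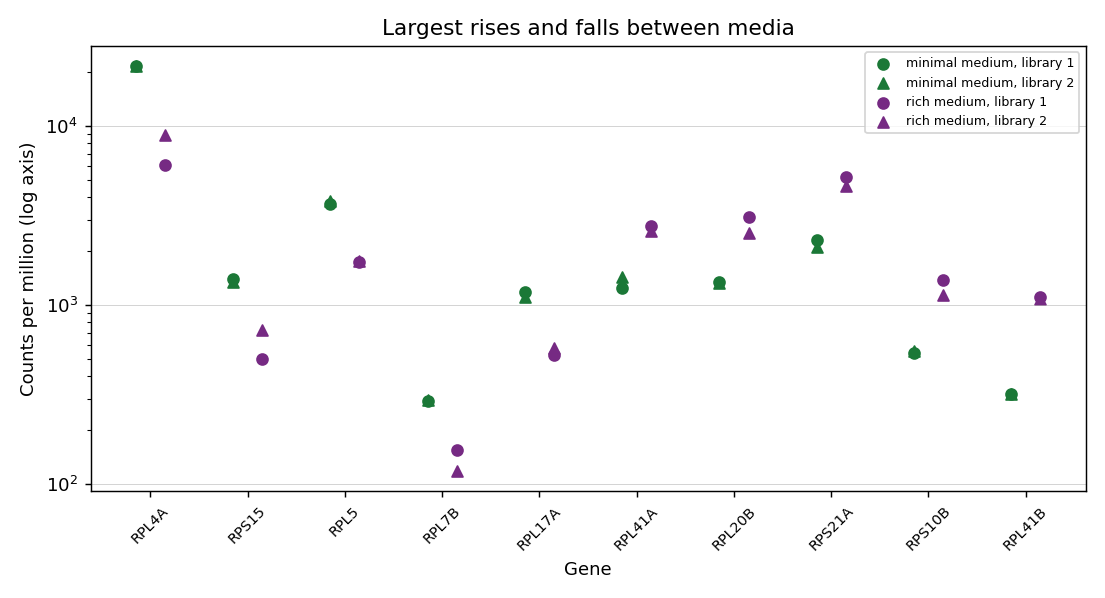
CPM (vertical log axis) of 5 of the members with the largest rises and 5 of those with the largest falls among called members, in each library. Circles and triangles are the 2 libraries of each medium, green for minimal and purple for rich. In all 10 genes both minimal libraries lie on the same side of both rich libraries, RPL4A highest at 21514 and 21437 in minimal medium.

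When both copies of a pair were summed, 13 of 75 proteins rose and 23 fell, against 17.8% and 15.5% of all rows tested that way. The 57 pairs alone gave 10 rises and 16 falls. Both copies rose in 6 pairs, RPL13, RPL4, RPL7, RPL8 and RPS4 among them, and both fell in 6, RPL41, RPS10, RPS21, RPS22 and RPS30 among them. In 26 pairs 1 copy was called and in 16 none. In 9 of the 16 pairs with a called ratio the total was not called. Without minimal replicate 1 the sums gave 7 rises and 4 falls, without minimal replicate 2 they gave 8 and 5, without rich replicate 1 they gave 28 and 21, and without rich replicate 2 they gave 16 and 35.

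Further members are known for control of their own RNA. Rpl30 is known to bind and hold back the splicing of its own transcript, and RPL30 was at 7777 and 8206 CPM in minimal and 7453 and 9506 CPM in rich medium, with a log2 change of -0.09 ± 0.19 (SE). RPS14B, the repressed copy of its pair, rose by 0.72 (edgeR adjusted p = 0.00488), with no call for RPS14A at 0.33, and the ratio of the copies was not called (-0.41, adjusted p = 0.337). RPL2A, the minor copy, rose by 0.95 (adjusted p = 0.00021), and RPL2B was not called at 0.45, nor was the ratio (0.50, adjusted p = 0.186). In RPL12, which forms the base of the stalk, RPL12A rose by 0.66 (adjusted p = 0.00298) and RPL12B was not called at 0.11, nor was the ratio (0.54, adjusted p = 0.108). In these 3 pairs the copies are therefore not shown to differ in response. Without minimal replicate 1 or 2 RPS14B (adjusted p = 0.128 and 0.061) and RPL12A (0.067 and 0.184) were not called. RPL12A was also not called with reads up to 200 nt past the stop codon (adjusted p = 0.321), a window in which the mean A share of RPL12 was 54.3% instead of 81.1%.

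The copies ended at different distances from their stop codons. For each gene the distance from the stop codon to the cleavage position was averaged over its reads past the stop codon, if these came to a mean of at least 20 per library. The R64 annotation holds no untranslated regions, so that all distances start at the annotated stop codon. Reads past the start of the next same-strand gene were given to that gene, which caps the distances unequally. That start lay 209 nt past the stop codon in RPL22A and 250 nt in RPL22B. With reads up to 500 nt, and so without RPS28B, the median distance over 130 members was 107 nt, from 55.9 nt in RPS31, a fusion of ubiquitin and a 40S protein, to 306 nt in RPL38, with quartiles of 91.6 and 151 nt. The median over all 3666 genes was 134 nt. In 55 pairs with both copies measured the copies differed by a median of 51.6 nt, by at least 50 nt in 31 pairs and by at least 100 nt in 13, and by under 10 nt in 9.

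These differences between copies were stable from library to library. The same copy ended further downstream in all 4 libraries in 54 of the 55 pairs, the exception being RPL17. The SD of the difference over the libraries had a median of 1.80 nt and reached 30.7 nt in RPL8. The A copy was the longer one in 29 pairs and the B copy in 26. The higher copy ended nearer to the stop codon in 30 of the 55 pairs, and in 18 of the 36 pairs whose copies differed by at least 2-fold in reads. Among the pairs with a called ratio 7 of 16 differed by at least 50 nt, and among the others 24 of 39.

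**Figure D4:**
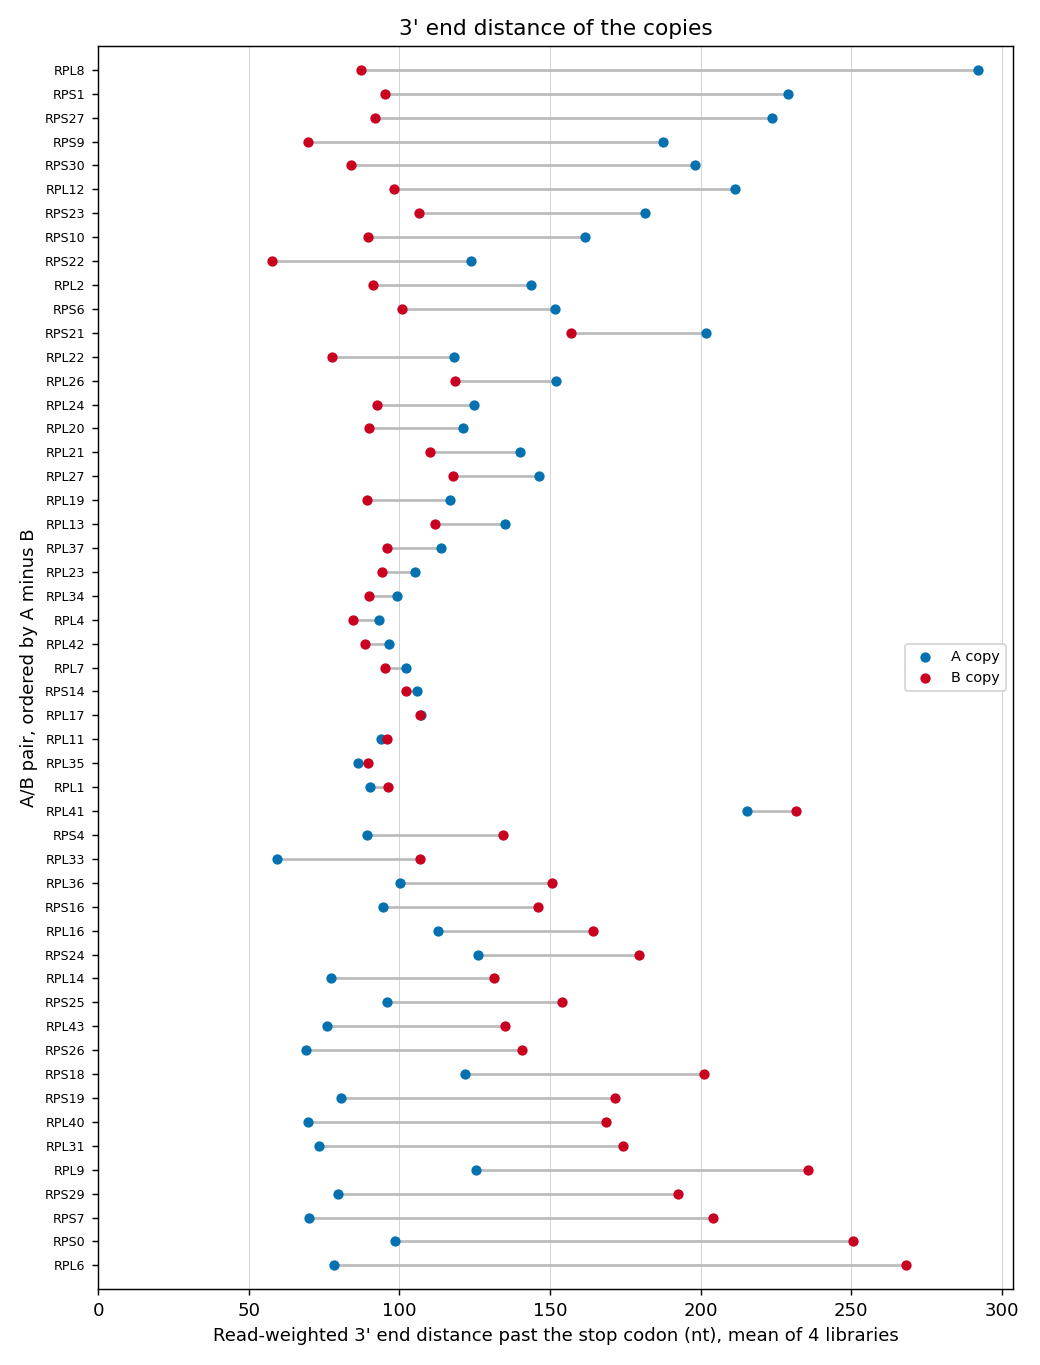
Read-weighted distance from the stop codon to the 3′ end (horizontal axis, nt, mean of 4 libraries) of the A copy (blue) and the B copy (red) in 51 pairs, ordered by A minus B. RPL8, RPS1 and RPS27 have the A copy far downstream, RPL6, RPS0 and RPS7 the B copy, and the points of RPL17 coincide.

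Within the window of 500 nt RPL8 and RPL6 had the largest differences, 205 and 190 nt. With reads up to 1000 nt RPS28 came first, with RPS28A at 146 nt and RPS28B at 645 nt, a difference of 499 nt, and RPL8A lay at 356 nt, 269 nt past RPL8B. RPL6A (chrXIII:123227-124172) ended at 78.2, 78.1, 78.2 and 78.2 nt in the minimal and then the rich libraries, and RPL6B (chrXII:1028854-1029768) at 268.5, 268.6, 267.9 and 267.4 nt. Each had nearly all reads at a single site, 99.9% in RPL6A and 97.9% in RPL6B. RPL8A ended at 292, 249, 316 and 310 nt in the same order, with reads spread over 4 sites, against 86.3 to 88.0 nt in RPL8B. RPL8A is thus long and variable where RPL6B is long and fixed.

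In RPS0 the A copy ended at 98.6 nt and the B copy at 250.5 nt on average, and in RPS7 at 69.9 and 204 nt. In RPS1 the order was reversed, with RPS1A at 229 nt and RPS1B at 95.2 nt, and likewise in RPS27, with 224 and 91.8 nt. The smallest differences were found in RPL17, RPL11 and RPL35, at 0.364, 2.03 and 3.32 nt. The copies of RPL22 lay between these extremes, with RPL22A at 118 nt and RPL22B at 77.7 nt.

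The sequences at the most used sites of RPL6 and RPL22 are shown as examples of copies of 1 protein that end at different distances. The capital is again the deposited cleavage position. Positions on R64 are chrXIII:123144-123173 (minus strand, 78 nt past the stop codon), chrXII:1030008-1030037 (plus strand, 264 nt), chrXII:264046-264075 (plus strand, 122 nt) and chrVI:64151-64180 (minus strand, 87 nt).
RPL6A: atttaactacagtttcataagtgcAtttgt
RPL6B: taaatattaatatctaagggttcaAgatca
RPL22A: agaaatccattgggcccttagtgcAttttt
RPL22B: atatatccttttgtccctcttttgAtttac

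The hexamer TATATA of the yeast efficiency element, its variant TATGTA, the variant TACATA and the fourth form TACGTA were searched on the transcript strand from 20 to 80 nt upstream of each gene's most used site. At least 1 was found in 82 of the 132 members (62.1%), against 64.2% of 5144 genes with a site and 71.0% of 631 other genes with at least 1000 reads. TATATA lay 46 nt upstream of the RPL6A site and TACATA 48 nt upstream of the RPL6B site, and none of the 4 forms lay in that window at either RPL22 site or at the RPS28B site. Sites were formed by joining cleavage positions within 24 nt and keeping those with at least 5% of a gene's reads. By that measure 53 members (40.2%) had a single site, against 25.6% of all genes and 49.4% of the other genes with at least 1000 reads, 48 had 2 sites and 31 had 3 or 4.

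Between media the distances hardly moved. Limma called none of the members and 0.0% of the 3664 genes tested, and at an unadjusted p under 0.05 there were 17 members and 376 genes. The median change of the members was 0.198 nt, 117 of the 130 changed by under 5 nt either way, and the range was -42.9 nt (RPL8A) to 46.0 nt (RPL15A). Among the lowest p-values were those of RPL16A (115.0 and 115.9 nt in minimal, 110.0 and 109.9 nt in rich medium), RPL40B (176.5, 174.9, 163.5 and 159.7 nt) and RPL35A (89.3, 89.3, 84.3 and 82.6 nt), all with a limma adjusted p of 0.298. In these 3 genes the libraries of the media did not overlap. The median cleavage position, tested in place of the mean, called RPL40B, with 180 nt in both minimal and 177 nt in both rich libraries, and RPS0B, with 230 and 222 nt. It called 3.93% of all genes, 2.21% further downstream and 1.72% nearer in minimal medium, some with the same position in both libraries of a medium and hence no spread.

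The use of alternative sites was tested in 78 members with at least 2 sites and enough reads, as the ratio of reads at the distal to those at the proximal of the 2 most used sites. It was called in 5 members (6.41%), against 2.23% of the 2513 genes tested. These 2513 genes were not matched to the members for read depth. In 3 members the distal site was used more in minimal medium (background 1.71%), and in 2 the proximal site (background 0.517%). At an unadjusted p under 0.05 there were 15 members (19.2%), against 13.9% of all genes tested. DESeq2 called 2, RPL40B and RPL15A.

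RPL40B (chrXI:617996-618750), a fusion of ubiquitin and a 60S protein, used sites 127 and 191 nt past its stop codon. The distal site held 86.7% and 85.6% of the reads at both sites in minimal medium, against 71.9% and 65.4% in rich medium (log2 change 1.48 ± 0.28, SE; edgeR adjusted p = 2.5e-05). RPL15A (chrXII:201976-202590), a core 60S protein gene, used sites at 132 and 353 nt. Its distal share was 37.9% and 27.9% in minimal and 8.78% and 15.1% in rich medium (log2 change 1.89 ± 0.36, SE; edgeR adjusted p = 3.6e-05), on 23 to 47 distal reads per library. In both genes the minimal libraries lay above the rich ones without overlap.

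RPS1B (chrXIII:146482-147249), a 40S protein gene, used sites at 63 and 117 nt. The distal share was 66.5% and 64.9% in minimal and 56.2% and 45.5% in rich medium (log2 change 0.89, edgeR adjusted p = 0.00167). RPL8A (chrVIII:35255-36025), which encodes a protein of early 60S assembly, used sites at 61 and 373 nt, with a distal share of 49.8% and 36.1% in minimal and 58.7% and 64.7% in rich medium (log2 change -1.12, edgeR adjusted p = 0.0007). RPL38 (chrXII:781143-781379), a small 60S protein gene, used sites at 267 and 359 nt, with 30.6% and 32.6% distal in minimal and 42.5% and 56.9% in rich medium (log2 change -1.09, edgeR adjusted p = 0.00167). The second copies of RPS1B and RPL8A were also tested and not called, RPS1A with a log2 change of 0.11 and RPL8B with -0.11, and the difference between copies was not tested.

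These calls were sensitive to single libraries. Without minimal replicate 1 or without rich replicate 2 none of the 5 was called, without minimal replicate 2 RPL15A alone was, and without rich replicate 1 all but RPL15A were, among 6 distal and 5 proximal calls. The direction was kept in all 5 genes each time. It could not have changed, since the distal shares of the media did not overlap in these genes. With positions joined within 12 nt, which can choose other sites, none of the 5 was called and RPL15A changed sign, to -0.39.

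**Figure D5:**
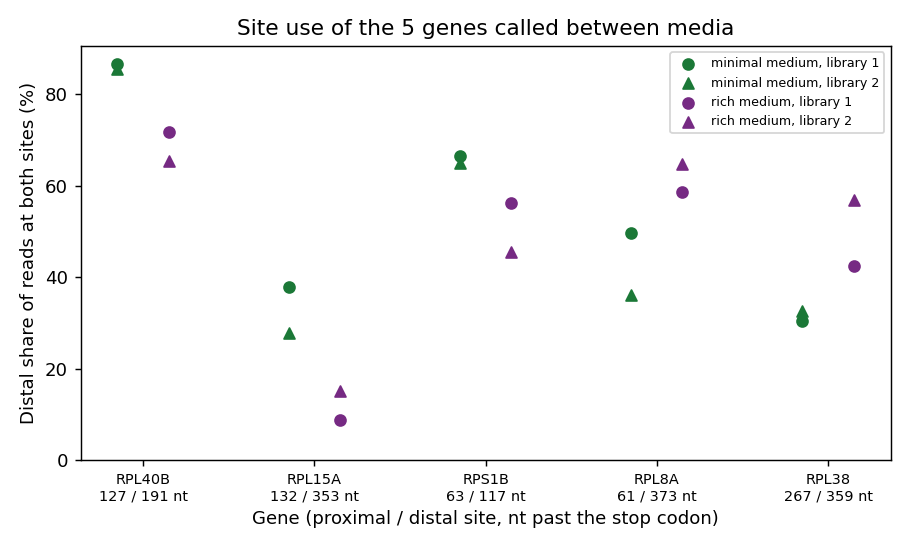
Share of the distal site in the reads at both sites (vertical axis, percent) of the 5 members called for site use, in each library. Circles and triangles are the 2 libraries of each medium, green for minimal and purple for rich, and the sites' distances past the stop codon stand under each gene. In RPL40B, RPL15A and RPS1B both minimal libraries are above both rich ones, and in RPL8A and RPL38 both are below.

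The sequences at both sites of the 5 genes are shown because the choice between them is what differed. The first line of each gene is the proximal site and the second the distal site, with the deposited cleavage position in capitals. On R64 they lie at chrXI:617864-617893 and chrXI:617800-617829 (RPL40B, minus strand), chrXII:201839-201868 and chrXII:201618-201647 (RPL15A, minus strand), chrXIII:147288-147317 and chrXIII:147342-147371 (RPS1B, plus strand), chrVIII:35189-35218 and chrVIII:34877-34906 (RPL8A, minus strand), and chrXII:780871-780900 and chrXII:780779-780808 (RPL38, minus strand).
RPL40B proximal: cttaatatggacctctcttcacaaAttgtt
RPL40B distal: gtcatttgagataatggtatgcaaAtacgc
RPL15A proximal: tttctttaaccaatttttttttttAtagac
RPL15A distal: caagtaaatttctccgccgcataaAttaac
RPS1B proximal: aatttattaatatgttttctctttAttatt
RPS1B distal: aaagaaggtgacgcaccatacagaActtgc
RPL8A proximal: tttaataataatattaattttcaaAcgttt
RPL8A distal: tgtaaataagtattgccatatcggAttgat
RPL38 proximal: ttgaagaagagagttctatacgttCttttt
RPL38 distal: aaggtaaaaacgggagcgagcatcAtacgg

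Few reads of the members ended between start and stop codon, with a median of 0.0172% of a gene's reads and under 1% in 123 members. RPL4B was highest at 18.6%, with 9.93% and 10.8% in minimal and 33.5% and 21.7% in rich medium. RPS9A followed at 14.0%, then RPS14B at 4.56%, RPS0B at 4.21% and RPL15B at 4.0%, which for RPL15B is 1 read of 25. These 5 genes are the lower copies of uneven pairs, 469-fold for RPS9, 63.7-fold for RPS14, 35.0-fold for RPL4, 31.1-fold for RPL15 and 22.1-fold for RPS0. Lower copies of other uneven pairs had few such reads, 0.566% in RPL23A, 0.180% in RPS29B and 1.25% in RPL2A, and RPS0A, a higher copy, came next at 2.87%.

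Other genes of the pathway were counted from lists chosen by function. Of the 5 stalk protein genes RPP1B rose (log2 change 0.96, edgeR adjusted p = 0.00025) and RPP1A fell (-0.49, adjusted p = 0.027). Among 10 regulators of ribosomal protein gene transcription 8 were tested, and HMO1, a protein that binds many of these promoters, rose by 0.65 (adjusted p = 0.00599) and the kinase gene SCH9 by 0.94 (adjusted p = 0.0446). The other 6, FHL1, IFH1 and SFP1 among them, were not called. Of 7 dedicated chaperone genes tested LOC1 fell by 0.55 (adjusted p = 0.0265). Of 53 mitochondrial ribosomal protein genes tested 7 rose (13.2%) and 8 fell (15.1%). Over all genes tested 17.7% rose and 15.7% fell, so that this share is near the background, and the shorter lists are too small to be read against it.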

How the data were processed

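The authors deposited counts, that is, unnormalized numbers of reads at each stranded cleavage position. The aligner was Bowtie2, per the submitters' processing notes (version not given in the sources used here), and the only build named is ASM294v2, of S. pombe. Positions were therefore checked against S. cerevisiae R64: on each of 16 chromosomes at most 0.646% of cleavage positions with at least 20 reads were followed by A, against 19.0% to 29.0% for the base 8 nt downstream.

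Same-strand reads from start codon to at most 500 nt past the stop codon were summed per gene. A later gene on the same strand, long noncoding genes excepted, took the reads past its own start. Genes lying within another gene got no stretch past the stop codon. The window can thus differ between copies: the next gene started 127 nt past the stop codon of RPS10B and 488 nt past that of RPS10A. Expression, the A to B ratio (terms for library, copy and copy by medium) and site use were tested with edgeR 4.0.16 (quasi-likelihood, TMM, filterByExpr for expression, a mean of at least 20 reads for ratios), and distances with limma 3.58.1 (eBayes with trend), in R 4.3.3. P-values were Benjamini-Hochberg adjusted over all genes or pairs, and called under 0.05. A positive log2 change means higher in minimal medium. Ribosomal protein pairs were formed from the A and B symbols. The other duplicate pairs were reciprocal best protein hits (BLAST 2.17.0), with no minimum identity. DESeq2 1.42.0, other windows and site definitions, a replicate block and leaving out each library were alternatives. The fits were also run on simulated data, with ratio changes larger than those of the called pairs. Their performance at the smaller changes reported here was not tested. Genes named with values were those with the largest changes, shares or distances, all called in site use, and members known for control of their own copies. The members and lists were chosen with earlier results of these data known. Replicate numbers did not pair the libraries (correlation of deviations 0.06 across 4650 genes, with 2 pairs). Values of some members are not reported or plotted here, while all members enter the fits and counts.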

Additional observations from a re-analysis of the deposited data

How the results depend on the processing

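With 2 libraries per medium, leaving out 1 leaves a lone library that is assumed to vary like the other medium's, and this moved the counts most. Over the 4 such settings rises of members ranged from 11 to 49 and falls from 9 to 54. Pairs with a higher A share in minimal medium ranged from 0 to 21 and with a lower one from 0 to 11. Summed proteins ranged from 7 to 28 rises and from 4 to 35 falls, and site use from 0 to 6 distal and from 0 to 5 proximal calls. The cause was not tested. DESeq2 called 3 pairs with a lower A share and no proximal shift. Reads up to 200 nt past the stop codon gave 5 pairs with a higher and 2 with a lower A share, and reads past the stop codon only gave 3 with a lower one. For site use, 12 nt joining gave 0 distal and 1 proximal calls and turned RPL15A to -0.39, 48 nt joining gave 1 proximal call, and a minimum mean of 50 reads gave 1. The median cleavage position called 2 members further downstream in minimal medium. The replicate block, although the numbers did not pair the libraries, gave 6 distal calls in place of 3 and kept all 16 pair calls. The window of 1000 nt, chosen after seeing the data, kept all 16 pair calls and gave an A share of 26.1% for RPS28. Of 508 single tests repeated under alternatives, 412 kept their status, called in the same direction or not called. The sign was not compared where neither run made a call. Another 93 lost the call, most of them with a library left out, 2 gained it and 1 called result changed sign. Depth limits the low copies: RPL15B had 25 reads in all and RPS9A 143.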
